A study of Homo sapiens and Mus musculus with 22 samples.

Results

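The genes described here encode the subunits of the mitochondrial respiratory chain and of ATP synthase, from the nuclear genome and from mitochondrial DNA. They were chosen by symbol: names starting with NDUFA, NDUFB, NDUFC, NDUFS or NDUFV and a number, SDHA to SDHD, UQCR, CYC1, COX4 to COX8 or ATP5, in mouse case in the mouse table, and the 13 MT- genes of mitochondrial DNA. Pseudogenes, assembly factors, antisense and read-through genes were left out. The rule gave 102 symbols of the 34365 in the 3 count tables. The table of H69 and H69M held 87 nuclear members, that of H69EZ 86 nuclear and 13 mitochondrial members, and 85 nuclear members were in the mouse table. The mitochondrial genes were measured in the H69EZ table only.

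Complex I (NADH dehydrogenase) and complex II (succinate dehydrogenase) pass electrons to coenzyme Q, complex III (cytochrome bc1) passes them to cytochrome c, and complex IV (cytochrome c oxidase) passes them to oxygen. Complexes I, III and IV pump protons across the inner mitochondrial membrane, and complex V (ATP synthase) uses the gradient to make ATP. Every complex but complex II is built from subunits of both genomes, so cells need transcripts from the nucleus and from mitochondria. Several complex IV subunits exist as isoforms that differ between tissues, such as COX6A2 and COX7A1 of heart and muscle and COX6B2 of testis. Members were placed in complexes by symbol. NDUFA4, named as a complex I gene, is now regarded as a subunit of complex IV, and NDUFA4L2 is its hypoxia-induced relative. COX7A2L, ATP5S and ATP5SL match the rule without being classical subunits: COX7A2L takes part in joining complexes III and IV into supercomplexes.

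RNA was sequenced after exome capture in 22 libraries of small cell lung cancer (SCLC) lines, in 8 groups. H69 (NCI-H69, 3 libraries) is a human line whose label gives surface MHC class I, the peptide-presenting complex, as low or negative. H69M (3), derived from H69, has a label of high. H69M was also sorted for PD-L1, an immune checkpoint ligand, into a low fraction (3, MHC class I low or negative) and a high fraction (3, MHC class I high). H69EZ came from H69 by 6 days of an EZH2 inhibitor, after which adherent cells were selected in drug-free medium, and was sorted for surface HLA-ABC into a low (2) and a high (2) fraction, so both fractions have that history. RPP (631RPP, 3) is a mouse line labelled MHC class I low or negative, and its adherent derivative RPP-A (3) is labelled high. Each line is 1 derivative, and the labels do not say that libraries came from separate cultures, so p-values rest on library-to-library spread that may be technical in origin.

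Total counts ran from 10817795 to 26834561 per library in the H69 and mouse tables and from 40568796 to 52458228 in the H69EZ table. Levels are in CPM, read counts relative to library size, scaled by TMM, a normalisation of library composition. A member is called higher or lower at a Benjamini-Hochberg adjusted p under 0.05 over all genes of its table in edgeR's quasi-likelihood test, and "neither" is the rest. Summed CPM of 5 neuroendocrine markers ranged from 2776 to 2953 for H69 and from 2714 to 2798 for H69M. The PD-L1 low fraction had 3904 to 4128 and the PD-L1 high fraction 1066 to 1121. The HLA low libraries had 1893 and 1909, the HLA high libraries 549.5 and 570.3, and there were 2282 to 2828 in RPP against 150.4 to 190.7 in RPP-A. For 6 fibroblast and stromal markers the sums were 2.58 to 3.26 for H69, 1292 to 1432 for H69M, 52.9 to 106 in the PD-L1 low and 6134 to 6566 in the PD-L1 high fraction, 10.6 to 10.8 and 10081 to 11056 in the HLA fractions, and 61.5 to 292 against 15485 to 20861 in the mouse lines. All 6 stromal markers were higher in each of the 5 comparisons described below, with PDGFRB at 0 in H69, COL3A1 in the HLA low fraction and Lum in RPP. Of the 5 neuroendocrine markers, 5 fell from the PD-L1 low to the high fraction, 4 from HLA low to high and 5 from RPP to RPP-A. Leukocyte markers summed to at most 7.85 CPM in any library, with CD3E at 0 in every group. The marker sums move with the comparisons, and their part in the results was not tested. In bulk samples, fewer cells of a type and less RNA per cell cannot be told apart. In the mouse table the columns EHK_RPP4 and RPPM3 stood apart from the other libraries of their groups (chi-square per degree of freedom 28.1 to 37.2 over genes), while RPPM1 and RPPM2 differed little (1.33).

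The 13 mitochondrial genes lie on a circular genome and, in places, share bases, so that reads there cannot be assigned to a single gene. In the reference used here (GENCODE 29, GRCh38; the deposited counts rest on build hg19) MT-ATP8 is 207 bases long and shares its last 46, or 22.2% of its length, with the start of MT-ATP6, at chrM:8527-8572 on the + strand. MT-ND4L and MT-ND4 share 7 bases at chrM:10760-10766. The sequences are shown because the counts of MT-ATP8 and MT-ATP6 are not fully separable. Capitals mark the shared bases, flanked by 15 bases on each side.
MT-ATP8 and MT-ATP6: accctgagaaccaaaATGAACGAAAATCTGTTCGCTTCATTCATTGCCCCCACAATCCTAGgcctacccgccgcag
MT-ND4L and MT-ND4: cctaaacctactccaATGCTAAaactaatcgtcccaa
Each shared stretch opens with the ATG start codon of the second gene. MT-ND6 is the gene of the 13 that lies on the other strand, at chrM:14149-14673.

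Nuclear subunit promoters are known for binding sites of NRF1, of the ETS factor GABP and of YY1. RefSeq promoters (GRCh38.p14, 250 bases before to 50 after a start) were found for 69 of the 87 human nuclear members by symbol. At 79.3% this is under the share needed, so a comparison of the members as a set with other genes is void. Searching both strands, the NRF1 core GCATGCGC stood in the promoters of 14 members, and 3.68% of all 27305 genes with a promoter held it. The ETS letters CCGGAAG stood in those of 20 members (12.2% of all genes) and the YY1 letters AAGATGGC in those of 12 (3.52% of all genes). The windows of SDHB and SDHD, whose complex II products are described below, and of the complex IV gene COX5B show the NRF1 core and the ETS letters, on either strand, in capitals.
SDHB, chr1:17054146-17054240, - strand: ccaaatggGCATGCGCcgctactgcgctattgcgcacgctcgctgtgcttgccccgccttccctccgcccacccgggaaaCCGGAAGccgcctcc
SDHD, chr11:112086755-112086810, + strand: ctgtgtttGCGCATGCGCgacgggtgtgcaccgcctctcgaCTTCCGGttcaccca
COX5B, chr2:97645918-97646039, + strand: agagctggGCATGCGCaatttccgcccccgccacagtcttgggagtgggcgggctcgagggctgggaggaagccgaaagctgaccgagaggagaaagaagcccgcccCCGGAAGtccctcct
In SDHD the NRF1 core overlaps its own reverse complement. A match of letters is a description and not a binding site.

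Nuclear subunit genes were highest in parental H69. Their summed level was 11039, 11792 and 12110 CPM in the 3 H69 libraries, 9300, 9047 and 8951 in H69M, 8234, 8304 and 7906 in the PD-L1 low fraction and 7919, 7524 and 7301 in the PD-L1 high fraction. All H69 libraries lay above all others, and the fractions overlapped at one library each. Of the 82 members tested in this table, 72 had their highest group mean in H69, 5 in H69M, 5 in the PD-L1 low fraction and 0 in the PD-L1 high fraction. The lowest mean was in the PD-L1 high fraction for 40 members and in the PD-L1 low fraction for 35. These counts were not made over all genes, so how far the members differ from other genes in this order is not known.

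**Figure D1:**
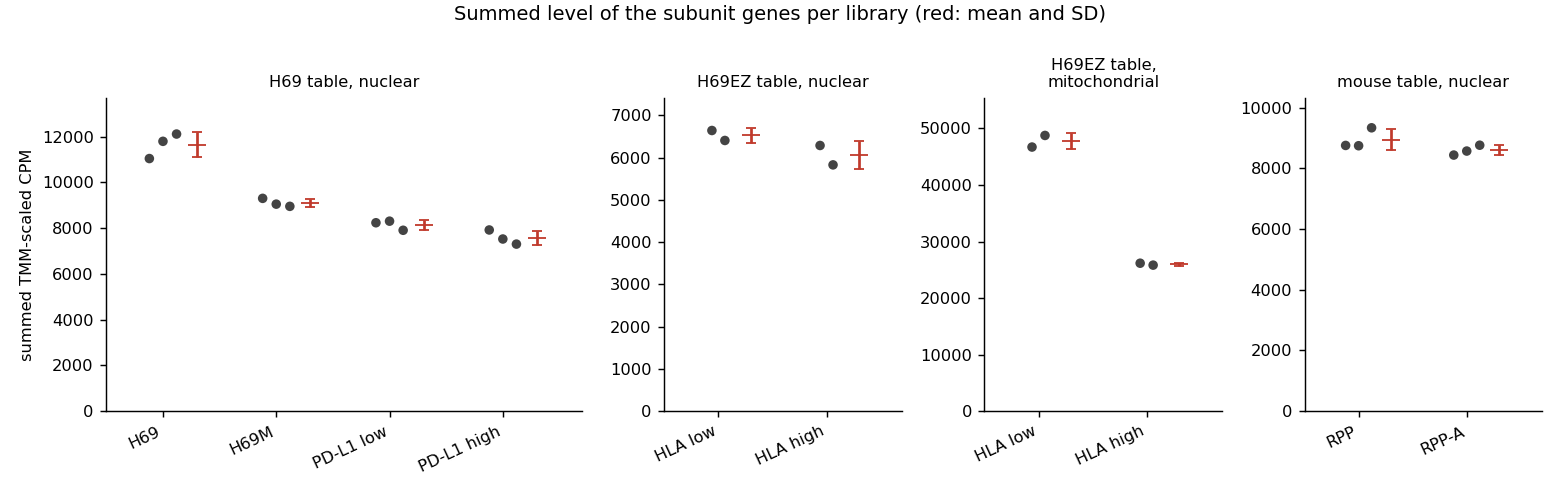
Summed TMM-scaled CPM of the nuclear and the mitochondrial subunit genes in every library (black points), with the group mean and SD in red; each panel is 1 table and set and has its own axis from 0. The 3 H69 libraries lie at 11039 to 12110, above all other libraries of their table, and the mitochondrial sum of the HLA high fraction (25834 and 26173) lies below that of the HLA low fraction (46716 and 48769).

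In H69M against H69, most subunit genes of complexes I, III, IV and V were lower, and 2 of 4 of complex II. Of 82 nuclear members, 60 were lower, 5 higher and 17 neither, where 36.6% of all 15445 genes tested were lower and 35.9% higher (72.5% in either direction). Of the 4991 genes at least as abundant as the lower quartile of the members, 42.3% were lower. The median log2 fold change was -0.27 over the members and -0.01 over all genes. By complex, 29 of 38 complex I genes fell and 1 rose, 2 of 4 fell in complex II, 8 of 10 in complex III, 9 of 13 in complex IV with 3 rises, and 12 of 17 in complex V with 1 rise. In 57 of the 82, all H69M libraries were below all H69 libraries, as they were in 5663 of all 15445 genes and 2129 of the 4991.

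Most falls were modest in size. At a change of at least 1.5-fold, 14 members were lower and 2 higher, beside 2517 and 3270 of all 15445 genes tested. Of the 4991 genes at least as abundant as the lower quartile of the members, 470 were lower and 473 higher at that size. The share of falls at that size was thus near that of all genes and above that of the 4991. ATP5B (ATP5F1B), the catalytic beta subunit of ATP synthase, stood at 1199, 1352 and 1378 CPM in H69 and 891, 865 and 908 in H69M. The groups did not overlap, and the log2 fold change was -0.56 (SE 0.06, adjusted p 1.09e-07). ATP5A1 (ATP5F1A), the alpha subunit, fell from 859, 935 and 923 to 652, 611 and 658 CPM (-0.50, SE 0.06, adjusted p 8.5e-07). The flavoprotein NDUFV1, where NADH is oxidised in complex I, fell further: 170, 173 and 162 CPM in H69 against 95.3, 102 and 99.9 in H69M. Its log2 fold change was -0.77 (SE 0.05, adjusted p 1.38e-11).

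NDUFS7 (-0.72, SE 0.06) and NDUFS3 (-0.57, SE 0.06), core subunits of complex I, fell as well. Some catalytic and core genes of the chain did not pass the test. NDUFS1, the largest subunit of complex I, was at 105, 113 and 127 CPM in H69 and 119, 113 and 116 in H69M, values that overlap (log2 fold change 0.01, SE 0.07, adjusted p 0.855). UQCRC1, a core protein of complex III, had values of 155 to 180 CPM in H69 and 157 to 166 in H69M (-0.04, adjusted p 0.503), and SDHB, the iron-sulfur subunit of complex II, 46.5 to 56.3 and 46.1 to 49.8 (-0.05, adjusted p 0.502). SDHA, the flavoprotein of complex II, fell by 0.33 (SE 0.05). SDHD, one of its membrane anchors, fell by 0.53 (SE 0.10).

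The largest falls were in NDUFA4L2, ATP5E and NDUFB2. NDUFA4L2 had 2.82, 2.49 and 1.21 CPM in H69 and 0.854, 0.498 and 0.650 in H69M, with the third H69 library lower than the others but above every H69M library. Its log2 fold change was -1.79 (SE 0.27, adjusted p 6.79e-06). NDUFB2, an accessory subunit of complex I, fell from 72.3, 85.9 and 71.3 to 41.7, 39.1 and 43.8 CPM (-0.88, SE 0.07, adjusted p 1.24e-09). ATP5E, the epsilon subunit of ATP synthase, was called lower (-1.14, SE 0.24, adjusted p 0.000303), but its counts are uncertain. They were 24 to 146 per library in this table and 2544 to 4693 in the H69EZ table, and NDUFA11 went the other way with 1164 to 5404 against 224 to 303, so levels are not compared across tables.

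Testis-type isoforms of complex IV were higher in H69M. COX6B2 had 3, 3 and 1 counts in H69 and 20, 16 and 29 in H69M, or 0.0807 to 0.121 CPM against 0.796 to 1.11. The groups did not overlap, and the log2 fold change was 3.04 (SE 0.45, adjusted p 5.8e-06). COX8C was seen with 1 count in all H69 libraries together and 20 in H69M, a depth-scaled ratio of 19.1 (95% interval 3.06 to 792, counting error only). The somatic forms were far more abundant and fell: COX6B1 from 195, 207 and 235 to 139, 140 and 129 CPM (-0.64, SE 0.06), and COX8A from 233, 263 and 232 to 166, 153 and 166 CPM (-0.59, SE 0.07). The other rises were COX7A2L (0.24, SE 0.06), NDUFB8 (0.23) and ATP5S (0.25, SE 0.10, adjusted p 0.0268). The ATP5S call was lost without H69 replicate 3 (adjusted p 0.111) or H69M replicate 1 (0.146).

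**Figure D2:**
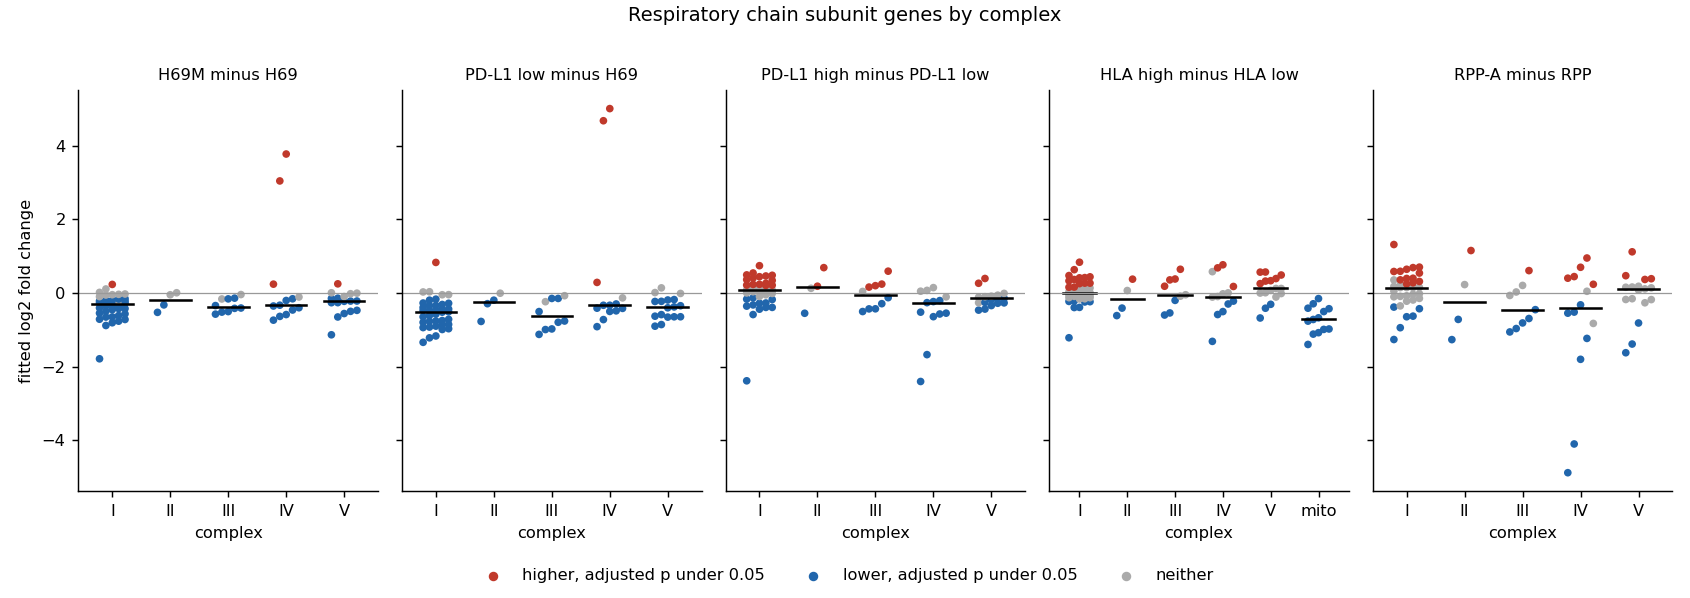
Fitted log2 fold change of each tested subunit gene, by complex, in the 5 comparisons; points are genes (red higher, blue lower, grey neither, at an adjusted p of 0.05) and the black bar is the median of a complex. In the comparisons with H69 most points lie below 0, and in the HLA sort all 13 mitochondrial genes do.

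The PD-L1 low fraction of H69M, which is labelled MHC class I low or negative like H69, was set against H69 as well. The fraction was sorted and H69 was not, so sorting and a difference between the cells cannot be told apart here. Unsorted H69M, at 8951 to 9300 summed CPM, lay above its low fraction (7906 to 8304) and its high fraction (7301 to 7919). The part of sorting was not tested. Of 82 members, 67 were lower in the fraction, 4 higher and 11 neither, where 36.9% of all genes were lower and 39% higher (75.9% in either direction). Of the 4991 genes at least as abundant as the lower quartile of the members, 48.6% were lower. The median was -0.45 over members and 0.02 over all genes. Falls took 33 of 38 genes of complex I, 3 of 4 of complex II, 8 of 10 of complex III, 9 of 13 of complex IV and 14 of 17 of complex V. This comparison shares the H69 libraries with the one above and the PD-L1 low libraries with the sort below, so their values are given side by side and not correlated. Summed CPM of 14 stress and immediate early genes was 754 to 811 in the PD-L1 low fraction, 718 to 743 in H69 and 719 to 734 in the PD-L1 high fraction. Among them ATF3 had means of 109, 16.4 and 9.72 CPM. Of 13 tested, 3 rose and 4 fell from H69 to the low fraction, and 6 rose and 4 fell from the low to the high fraction. Their part in the results was not tested.

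NDUFB2, NDUFA4 and NDUFA11 fell most. NDUFA4 had 260, 269 and 247 CPM in H69 and 116, 115 and 102 in the PD-L1 low fraction, a log2 fold change of -1.22 (SE 0.06, adjusted p 3.88e-13), beside -0.66 (SE 0.06) in H69M. NDUFB2 came to 30.4, 31.3 and 29 CPM (-1.34, SE 0.08, adjusted p 3.76e-12). CYC1, the cytochrome c1 of complex III, went from 224, 240 and 249 to 113, 104 and 110 CPM (-1.13, SE 0.05, adjusted p 2.71e-13). UQCRB, which binds coenzyme Q in complex III, went from 174, 166 and 195 to 88.6, 92.5 and 90.1 CPM (-0.98, SE 0.07, adjusted p 7.21e-11). No library of the fraction reached an H69 library for any of these 4 genes.

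Not every subunit was low there. SDHA stood at 195, 179 and 187 CPM, within the 177 to 203 of H69 (-0.01, SE 0.05, adjusted p 0.898), UQCRC1 at 151 to 166 beside 155 to 180 (-0.08, adjusted p 0.25) and NDUFS1 at 105 to 118 beside 105 to 127 (-0.05, adjusted p 0.544). The isoform genes were at their highest: COX6B2 had 73, 93 and 49 counts (3.24, 4.33 and 3.54 CPM), a log2 fold change of 5.0 against H69 (SE 0.34, adjusted p 7.37e-11). COX8C had 32 counts against 1 in H69, a ratio of 37.6 (95% interval 6.28 to 1531). COX4I2, the lung and hypoxia isoform of COX4, had 8, 5 and 2 counts in this fraction and 0 in every other library of the table, at least 5.88-fold higher than H69 against a floor of 3 counts over the group. NDUFA4L2 was higher than in H69 as well, with 3.77, 4.23 and 4.56 CPM (0.83, SE 0.20, adjusted p 0.000812). COX6A2, COX7A1 and COX7B2 had 0 counts in all 12 libraries.

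Between the PD-L1 fractions of H69M the complexes, as grouped by symbol, parted. Comparing the high with the low fraction, 23 of 82 members rose, 36 fell and 23 did neither, where 39% of all genes rose and 39.4% fell (78.3% in either direction). The count of falls is thus near the share of all genes, and that of rises is below it. Complex IV had 0 rises and 9 falls among 13 genes and complex V 2 rises and 9 falls among 17. The 0 leaves out NDUFA4, which rose, and its relative NDUFA4L2, which fell, as their symbols place them in complex I. Complex I had 15 rises and 12 falls among 38, complex II 2 and 1 of 4, and complex III 4 and 5 of 10. Scaling by library totals alone, which shifts the median of all genes by -0.14, gave 12 members higher and 47 lower. Under that scaling 46.4% of all genes were lower.

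NDUFA12, an accessory subunit that carries no electrons itself, had 47.9, 44.5 and 43 CPM in the PD-L1 low and 73.6, 76.5 and 76.5 in the PD-L1 high fraction. The groups were well apart, with a log2 fold change of 0.74 (SE 0.09, adjusted p 2.29e-07). SDHD rose from 38.2, 42.8 and 35.8 to 69, 58.3 and 61.2 CPM (0.69, SE 0.11, adjusted p 6.22e-06), and UQCRB from 88.6, 92.5 and 90.1 to 126, 140 and 142 (0.59, SE 0.07, adjusted p 1.15e-07). NDUFA4 rose from 102 to 116 CPM up to 152 to 172 (0.54, SE 0.06). All 4 were genes called lower in the PD-L1 low fraction against H69, as were 67 of the 82 members. Both comparisons use the same PD-L1 low libraries, so low values there enter both. The means of these 4 genes in the PD-L1 high fraction were below those of H69, a difference that was not tested. For SDHD the libraries of H69 (57.5 to 76.1) and of the PD-L1 high fraction overlapped.

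Catalytic and core genes were among the falls. SDHA went from 195, 179 and 187 to 127, 127 and 129 CPM (-0.55, SE 0.05, adjusted p 1.35e-08). COX5A and COX5B, the subunits that surround the catalytic core of complex IV, went from 123, 117 and 112 to 80.7, 80 and 76.5 CPM (-0.57, SE 0.06) and from 78.4, 80.4 and 73.5 to 53.3, 46.5 and 48.8 CPM (-0.64, SE 0.06). COX6A1 (-0.55), COX8A (-0.52) and COX4I1 (-0.26) fell with them, and COX7C (0.05), COX7A2 (0.07), COX6C (0.14) and COX6B1 (-0.11) were neither. UQCRC1 fell from 151 to 166 CPM down to 111 to 124 (-0.43, SE 0.06), and UQCRC2, the other core protein of complex III, by 0.29 (SE 0.06). NDUFV1 (-0.44), NDUFS1 (-0.33) and NDUFS7 (-0.59) fell in complex I, and NDUFV2 rose (0.34).

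The isoform genes were the widest apart. COX6B2 had 13, 8 and 16 counts in the PD-L1 high fraction, 0.427 to 1.13 CPM, below every PD-L1 low library (-2.40, SE 0.25, adjusted p 2.34e-08). NDUFA4L2 went from 3.77 to 4.56 CPM in the low to 0.685, 0.748 and 0.985 in the high fraction (-2.39, SE 0.25, adjusted p 4.07e-08). COX8C fell from 0.465 to 0.665 CPM to 0.107 to 0.211 (-1.68, SE 0.47, adjusted p 0.00283). COX4I2 was at least 5.08-fold lower in the high fraction. Unsorted H69M overlapped with the PD-L1 high fraction for COX6B2 and NDUFA4L2, at 0.796 to 1.11 CPM for COX6B2 and 0.498 to 0.854 for NDUFA4L2.

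**Figure D3:**
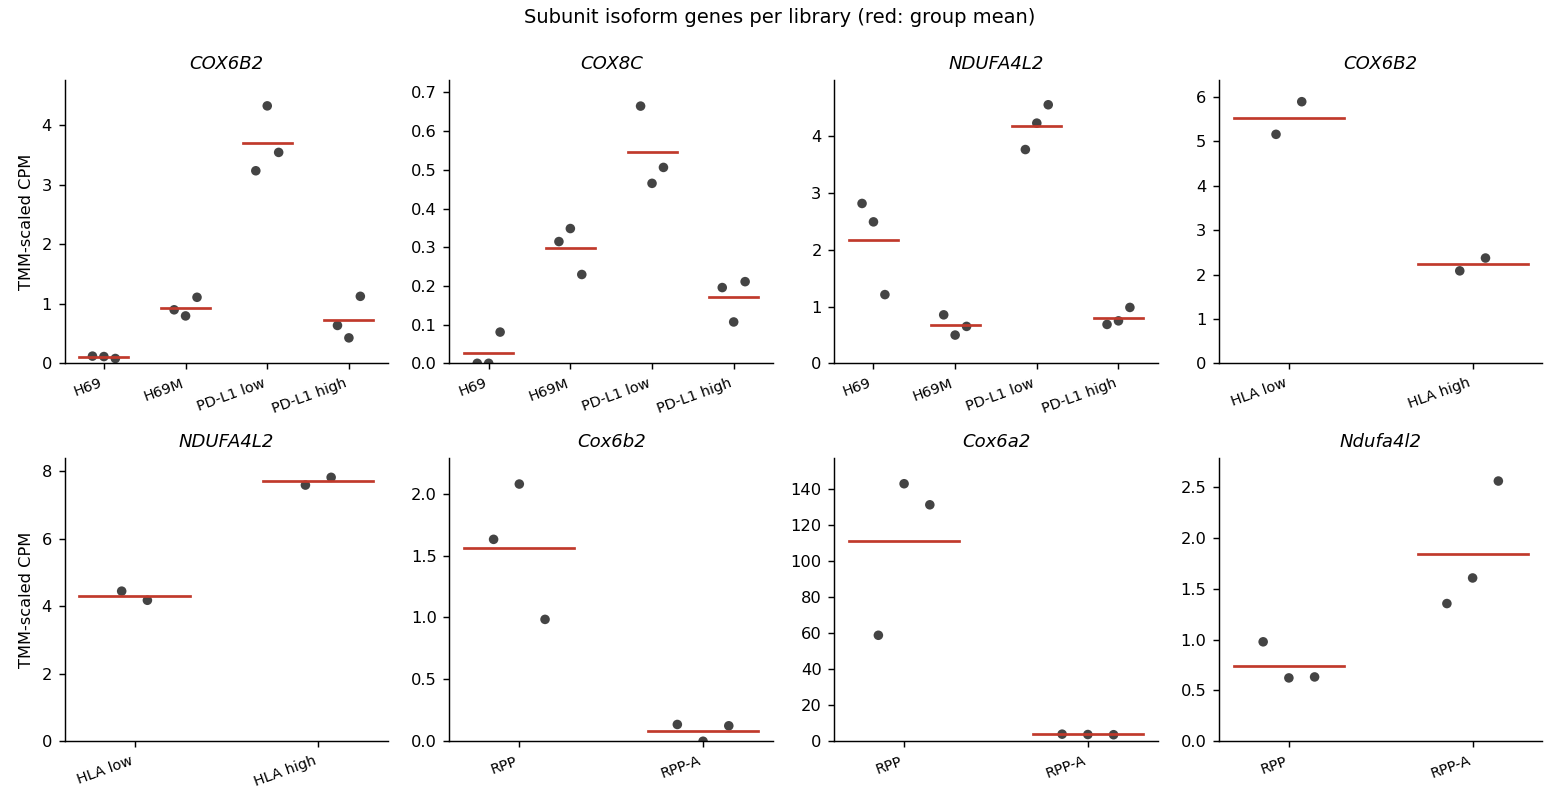
TMM-scaled CPM of isoform genes in every library (points) with group means (red); axes start at 0 and differ between panels, and the upper row opens with the H69 table. COX6B2 peaks in the PD-L1 low (3.24 to 4.33) and HLA low fractions and is near 0 in RPP-A, and NDUFA4L2 is low in the PD-L1 high and high in the HLA high fraction.

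In the HLA sort of H69EZ the mitochondrial and nuclear genes could be set side by side. All 13 mitochondrial genes were lower in the HLA high fraction, while of 81 nuclear members 28 were higher, 20 lower and 33 neither. The 13 genes share a genome and the same 2 libraries per fraction, so they are not 13 separate observations. Of all 14819 genes, 40.2% were lower and 41.1% higher (81.3% in either direction), so both nuclear counts are below the background. The median log2 fold change was -0.72 over the mitochondrial genes, from -1.40 to -0.15, and 0.00 over both the nuclear members and all genes. With library totals alone the mitochondrial count stayed 13 and the nuclear counts were 19 higher and 41 lower, as the median of all genes shifted by -0.15. Under that scaling 47.8% of all genes were lower. Without HLA high replicate 1, 34 nuclear members were lower. The HLA high libraries differed more from each other (chi-square per degree of freedom 10.5) than the HLA low libraries (2.57). Summed CPM of 14 stress and immediate early genes was 1744 and 1790 in the low and 1280 and 1359 in the high libraries, and its part in the result was not tested.

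The mitochondrial genes took 4.90% and 5.16% of the HLA low libraries and 2.49% and 2.44% of the HLA high libraries. Their summed level was 46716 and 48769 CPM against 26173 and 25834. The nuclear members took 0.697% and 0.677% of the HLA low libraries and 0.599% and 0.551% of the HLA high libraries. They summed to 6642 and 6406 CPM in the low and 6288 and 5829 in the high fraction, lower in the high fraction without overlap. The ratio of mitochondrial to nuclear counts was 7.03 and 7.61 in the low and 4.16 and 4.43 in the high libraries. The libraries did not overlap in this ratio, and 2 against 2 cannot give a two-sided exact permutation p under 0.333, so it is a description. Which capture probes target mitochondrial genes is not stated in the labels.

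The fall differed in size from gene to gene. MT-CO2, the complex IV subunit that takes electrons from cytochrome c, had 7126 and 7354 CPM in the low and 2772 and 2719 in the high fraction (-1.40, SE 0.06, adjusted p 1.42e-119). MT-CO1, the catalytic subunit with the oxygen-reducing centre, went from 10622 and 11402 to 5209 and 4936 (-1.12, SE 0.06, adjusted p 1.42e-78). MT-CO3, of the same complex, went from 2571 and 2636 to 2208 and 2036 (-0.29, SE 0.06, adjusted p 9.35e-07). In every one of the 3 the fractions were apart.

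Among the 7 mitochondrial genes of complex I, which form its proton-pumping arm, MT-ND4 (7053 and 7343 to 3287 and 3526 CPM, -1.08), MT-ND4L (-0.99) and MT-ND2 (-0.98) fell most. MT-ND5 (-0.77), MT-ND3 (-0.72) and MT-ND6 (-0.68) followed, and MT-ND1 fell least, from 2677 and 2722 to 2026 and 2023 CPM (-0.42, SE 0.06). MT-CYB, the cytochrome b of complex III, went from 2851 and 3008 to 2190 and 2161 CPM (-0.43, SE 0.06). MT-ATP6, whose product forms the proton channel of ATP synthase, went from 2570 and 2593 to 1811 and 1823 (-0.51, SE 0.06). MT-ATP8 went from 584 and 585 to 522 and 528 (-0.15, SE 0.06, adjusted p 0.0136). Its call was lost without either HLA low library (adjusted p 0.174 and 0.177), and part of its sequence is shared with MT-ATP6 as shown above.

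Within the mitochondrial counts the make-up therefore differed. MT-CO2 made up 15.3% and 15.1% of them in the low and 10.6% and 10.5% in the high fraction. MT-CO3 made up 5.50% and 5.40% against 8.44% and 7.88%, and MT-CYB 6.10% and 6.17% against 8.37% and 8.37%. MT-ND6, on the other strand, made up 2.91% and 2.87% against 3.28% and 3.35%.

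**Figure D4:**
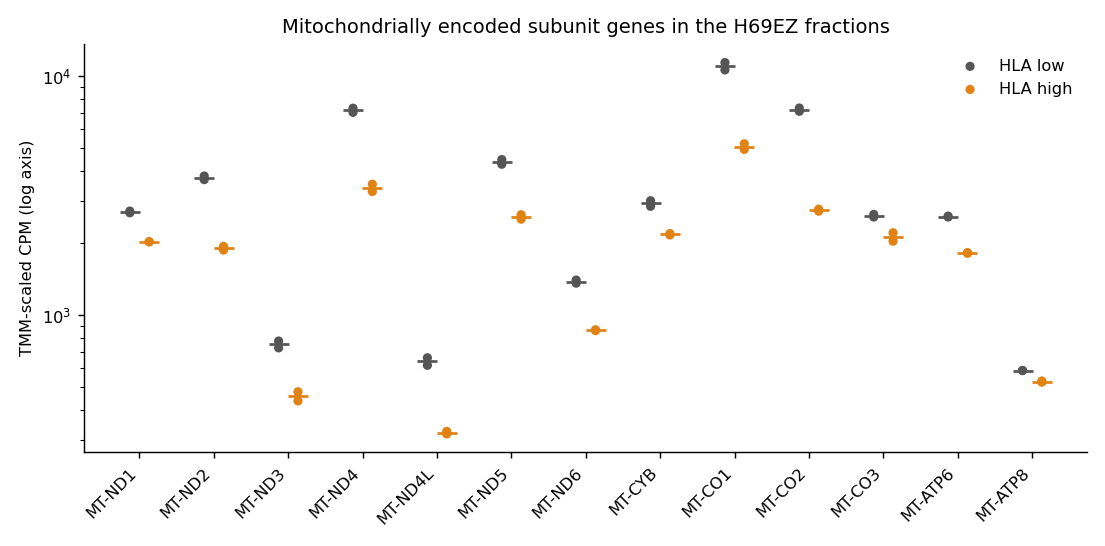
TMM-scaled CPM (log axis) of the 13 mitochondrially encoded subunit genes in the 2 HLA low (grey) and 2 HLA high (orange) libraries of H69EZ; dashes are group means. Every gene is lower in the HLA high libraries, from MT-CO2 (7126 and 7354 against 2772 and 2719) to MT-ATP8 (584 and 585 against 522 and 528).

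The nuclear genes went in both directions within each complex. NDUFS7, which carries the last iron-sulfur cluster of complex I before coenzyme Q, had 69.6 and 65.5 CPM in the HLA low libraries against 31.6 and 26.3 after sorting for high HLA (-1.22, SE 0.07, adjusted p 9.99e-60). ATP5B went from 884 and 861 to 565 and 523 CPM (-0.68, SE 0.06, adjusted p 3.94e-29) and ATP5A1 from 595 and 570 to 451 and 422 (-0.42, SE 0.06). SDHA went from 196 and 185 to 125 and 124 CPM (-0.62, SE 0.06), SDHB from 39.6 and 37.2 to 28.3 and 29.5 (-0.41, SE 0.08), and UQCRC2 from 216 and 223 to 145 and 144 (-0.60, SE 0.06). None of these overlapped between fractions.

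In complex IV, 3 of 13 genes rose in the HLA high fraction and 5 fell. COX6C had 87.0 and 84.5 CPM in the low and 151 and 140 in the high libraries (0.76, SE 0.07, adjusted p 7.12e-31), and COX7C 102 and 102 against 175 and 151 (0.68, SE 0.06, adjusted p 1.87e-25). COX5A (-0.51, SE 0.07) and COX5B (-0.59, SE 0.07) fell, and COX6A1 (-0.02), COX7A2 (0.00), COX7B (-0.10) and COX8A (-0.11) were neither. The broadly expressed isoform COX4I1 was called lower (-0.30, SE 0.06), a call lost without HLA low replicate 1 (adjusted p 0.0589). So was COX6B1 (-0.22, SE 0.06), a call lost when either HLA low library was left out (adjusted p 0.0982 and 0.0523). The third rise was COX7A2L (0.17, SE 0.07, adjusted p 0.0184), not called with library totals or without either HLA low library. In complex V, 7 of 17 genes rose, with ATP5L (0.57), ATP5E (0.56) and ATP5H (0.49) the largest, and 3 fell, ATP5A1 and ATP5B among them.

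Of the isoforms, COX6B2 had 261 and 254 counts (5.16 and 5.89 CPM) in the HLA low libraries against 104 and 91 (2.08 and 2.37 CPM) in the others, a log2 fold change of -1.32 (SE 0.14, adjusted p 2.45e-19). NDUFA4L2 went the other way, from 4.45 and 4.18 to 7.59 and 7.82 CPM (0.83, SE 0.12, adjusted p 4.81e-12). COX7A1 had 0.0988 to 0.365 CPM in the libraries of both fractions, which overlapped (adjusted p 0.269). COX8C had 11 counts in all 4 libraries together and was not tested.

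The PD-L1 sort of H69M and the HLA sort of H69EZ share no libraries, though both lines come from H69. Of 80 members tested in both, 14 were higher in both high fractions, out of 23 called higher in the PD-L1 sort and 28 in the HLA sort. Another 14 were lower in both, out of 34 and 20. Each is 17.5% of the members, where 28.2% of all 13621 genes tested in both sorts were higher in both and 25.5% lower in both, so members were called alike no more often than other genes. The shared rises were NDUFA2, NDUFA12, NDUFB1, NDUFB2, NDUFB3, NDUFB4, NDUFB9, NDUFC2, NDUFS4, SDHC, UQCRB, UQCRQ, ATP5F1 and ATP5J2. The shared falls were NDUFS1, NDUFS7, NDUFV1, NDUFA10, NDUFB10, SDHA, UQCRC2, UQCRH, COX4I1, COX5A, COX5B, COX6B2, ATP5B and ATP5SL. CYC1 was higher in the PD-L1 sort and lower in the HLA sort, and 8 members, NDUFA4L2 among them, went the opposite way. The call of NDUFV1 in the HLA sort was lost without HLA low replicate 1 (adjusted p 0.101), as was that of CYC1 (0.262). The call of CYC1 in the PD-L1 sort was lost with library totals (0.0773), and SDHC rose there with overlapping libraries, 43.1 to 50.5 against 47.4 to 55.7 CPM.

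**Figure D5:**
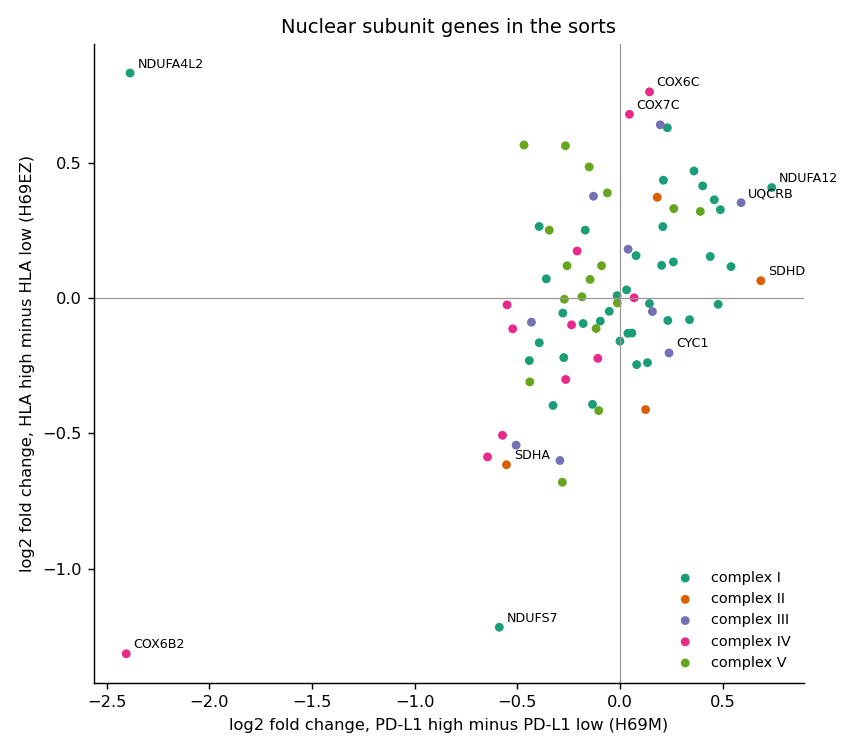
Fitted log2 fold changes of the nuclear subunit genes in the PD-L1 sort of H69M (horizontal) and the HLA sort of H69EZ (vertical), coloured by complex, with some genes named. COX6B2 lies low in both (-2.40 and -1.32), and NDUFA4L2 lies low in the PD-L1 sort (-2.39) and high in the HLA sort (0.83).

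In the mouse lines the nuclear sum was similar after TMM scaling, 8754, 8744 and 9335 CPM in RPP and 8437, 8569 and 8761 in RPP-A. As a share of all counts it was 0.992%, 0.984% and 1.07% in RPP and 0.746%, 0.747% and 0.776% in RPP-A. The likeness thus holds with TMM and not without it. Of 80 members tested, 24 were higher in RPP-A, 23 lower and 33 neither, where 37.6% of all 14032 genes were higher and 40.6% lower (78.2% in either direction). Both shares are below those of all genes. Rises and falls numbered 13 and 6 of 36 in complex I, 1 and 2 of 4 in complex II, 1 and 5 of 9 in complex III, 5 and 7 of 14 in complex IV and 4 and 3 of 17 in complex V. The mouse table has the widest spread of the 3 tables, with a common biological coefficient of variation of 0.157 against 0.0540 and 0.0450. Library totals alone, which shift the median of all genes by -0.37, gave 8 members higher and 42 lower, where 52.0% of all genes were lower. Without EHK_RPP4 and RPPM3 the counts were 34 and 31.

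The largest changes were again in isoforms of complex IV. Cox6a2, the heart and muscle form, had 58.7, 143 and 131 CPM in RPP, with EHK_RPP4 the lowest, and 3.93, 3.73 and 3.62 in RPP-A. The groups did not overlap, and the log2 fold change was -4.88 (SE 0.37, adjusted p 9.2e-06). Cox6b2 had 20, 30 and 14 counts in RPP and 2, 0 and 2 in RPP-A (-4.10, SE 0.63, adjusted p 0.000504). Cox7a2, a ubiquitous form, fell from 181, 173 and 194 to 51.9, 55.9 and 49.2 CPM (-1.80, SE 0.10, adjusted p 1.47e-06). Ndufa4l2 rose from 0.979, 0.623 and 0.633 to 1.36, 1.61 and 2.56 CPM (1.31, SE 0.36, adjusted p 0.0103). Cox4i2 had 9.62 CPM in EHK_RPP4 and 1.78 to 3.44 in the other libraries (adjusted p 0.266).

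Complexes II and III changed unevenly. Sdhc, a membrane anchor of complex II, rose from 55.6, 62 and 67.2 to 136, 130 and 145 CPM (1.15, SE 0.10, adjusted p 2.26e-05), while its partner Sdhd fell from 141, 159 and 181 to 64.7, 64.7 and 70 (-1.27, SE 0.11, adjusted p 2.35e-05). Sdhb fell by 0.72 (SE 0.09), and Sdha, at 161 to 185 CPM in RPP and 200 to 218 in RPP-A, was neither (0.23, SE 0.10, adjusted p 0.0664). The core proteins of complex III fell: Uqcrc1 from 188, 217 and 234 to 103, 103 and 101 CPM (-1.06, SE 0.11) and Uqcrc2 from 202, 211 and 220 to 104, 106 and 113 (-0.97, SE 0.09). Cyc1 rose from 106, 99.9 and 118 to 168, 175 and 150 CPM (0.61, SE 0.10, adjusted p 0.000965). It was not called with library totals alone (adjusted p 0.0661).

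In complex V, Atp5g2, which encodes the c subunit of the rotating ring, went from 17.7, 18 and 17.3 to 35.4, 36.9 and 42.6 CPM (1.12, SE 0.11, adjusted p 3.9e-05). Atp5a1 (0.18) and Atp5b (-0.18) were neither. Cox5a fell from 140, 140 and 171 to 64.7, 62 and 64.7 CPM (-1.23, SE 0.11, adjusted p 1.93e-05), while Cox5b, at 70.5 to 84.2 CPM in every library, overlapped (0.04, adjusted p 0.683). Of 77 members tested in all 3 of the PD-L1 sort, the HLA sort and the mouse comparison, NDUFA2, NDUFB9 and SDHC were higher in each and ATP5SL, COX5A, COX6B2, NDUFB10, UQCRC2 and UQCRH lower in each, with mouse genes matched by symbol. These are 3.9% and 7.79% of the members, where 16.9% and 14.6% of all 11213 genes tested in the 3 were higher and lower in each.

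Lists of genes that serve the chain are given beside the subunits by their counts, to be read against all genes tested: 35.9% of these were higher and 36.6% lower in H69M against H69, 39% and 36.9% in the PD-L1 low fraction against H69, 39% and 39.4% in the PD-L1 sort, 41.1% and 40.2% in the HLA sort and 37.6% and 40.6% in the mouse. Assembly factors were higher and lower in 13 and 22 of 50 genes in H69M against H69, in 10 and 25 of 50 in the PD-L1 sort, in 15 and 23 of 50 in the HLA sort and in 13 and 13 of 46 in the mouse. In the PD-L1 low fraction against H69 they were higher and lower in 13 and 25 of 50. Mitochondrial ribosomal proteins, which make the 13 mitochondrial proteins, were higher in 17 and lower in 38 of 76 in H69M against H69, and in 11 and 57 of 76 in the PD-L1 low fraction against H69, with a median of -0.41. They were higher and lower in 26 and 23 of 76 in the PD-L1 sort, in 21 and 29 of 74 in the HLA sort and in 36 and 17 of 77 in the mouse. Genes of coenzyme Q synthesis with cytochrome c were higher and lower in 2 and 8 of 14 in H69M against H69. The counts were 3 and 6 of 14 in the PD-L1 low fraction against H69 and 2 and 7 of 14 in the PD-L1 sort. They were 1 and 6 of 14 in the HLA sort and 4 and 4 of 14 in the mouse. In this list CYCS, cytochrome c itself, had a mean of 357 CPM ± 43.6 (SD, n = 3) in H69 and 198 ± 24.8 (SD, n = 3) in H69M (-0.85, SE 0.09, edgeR adjusted p 1.11e-07).

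Genes for the upkeep and transcription of mitochondrial DNA were higher in 4 and lower in 18 of 32 in the HLA sort, where 40.2% of all genes were lower. They were higher in 7 and lower in 18 of 31 in the PD-L1 low fraction against H69, and higher in 15 and lower in 2 of 31 in the mouse. In H69M against H69 these counts were 11 and 9 of 31, and in the PD-L1 sort 12 and 10 of 31. POLRMT, the mitochondrial RNA polymerase, had a mean of 121 CPM in the HLA low fraction and 60.6 in the HLA high one (-0.99, SE 0.07, edgeR adjusted p 4.74e-48), while PTCD2, of mitochondrial RNA processing, rose from 5.26 to 12.4 CPM (1.23, SE 0.11). LRPPRC, which stabilises mitochondrial messenger RNAs, went from 363 to 213 CPM in the PD-L1 sort (-0.76, SE 0.05, edgeR adjusted p 3.75e-11), and FASTK rose from 34.5 to 69.3 CPM (1.00, SE 0.08).

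Regulators of mitochondrial biogenesis were higher in 4 and lower in 7 of 17 in H69M against H69, in 4 and 8 of 17 in the PD-L1 sort, in 6 and 10 of 17 in the HLA sort and in 3 and 7 of 15 in the mouse. PPARD, a fatty acid-activated nuclear receptor, rose in all 4: by 2.31 (SE 0.13) in H69M, 3.30 (SE 0.10) in the PD-L1 sort, 3.53 (SE 0.09) in the HLA sort and, as Ppard, 1.71 (SE 0.15) in the mouse. The coactivators PPARGC1A and PPARGC1B were lower in H69M than in H69. PPARGC1A had a mean of 5.64 CPM in H69 and 0.338 in H69M (-4.11, SE 0.26), and rose from 0.616 to 1.87 in the PD-L1 sort (1.65, SE 0.30) and from 0.289 to 1.68 in the HLA sort (2.56, SE 0.29). In the mouse Ppargc1a fell (-2.33, SE 0.26). PPARGC1B had 48.1 CPM in H69 and 22.3 in H69M (-1.11, SE 0.09), and fell from 36.3 to 12 in the PD-L1 sort (-1.60, SE 0.10) and from 36.1 to 8.41 in the HLA sort (-2.10, SE 0.09). The pyruvate dehydrogenase and citric acid cycle genes were higher in 3 and lower in 12 of 26 in H69M against H69, in 6 and 11 of 26 in the PD-L1 sort, in 8 and 13 of 25 in the HLA sort and in 10 and 5 of 24 in the mouse. In the PD-L1 low fraction against H69 they were higher in 6 and lower in 12 of 26. The regulators there were higher in 5 and lower in 7 of 17.

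Some members were not tested because of low counts. In the H69 table these were COX7B2, COX6A2, COX7A1, COX4I2 and ATP5L2, in the H69EZ table COX7B2, COX8C, COX6A2, COX4I2 and ATP5L2, and in the mouse table Cox7b2, Cox8c, Ndufs5, Cox8b and Cox7a1, of which the first 4 had 0 counts. Human NDUFS5 had 79.6 to 98.1 CPM in the H69EZ libraries. How reads were counted is not given, so the 0 of mouse Ndufs5 is not read as a lack of expression. UQCRH and UQCRHL, and SDHA and its pseudogenes, have near-identical copies between which reads can be split, and the mitochondrial genes have nuclear copies, so their counts are uncertain to that extent.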

How the data were processed

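RNA from 22 libraries in 8 groups was captured with an exome kit and sequenced, per the labels' protocols. STAR 2.6.1 and builds hg19 and mm10 are named per the submitters' processing notes. How reads were counted (program, gene models, strand) is not given in the sources used here. The deposited values are the authors' whole-number read counts per gene in 3 tables. Mouse columns named RPPM were taken as RPP-A and carry no replicate numbers.

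Each table was fitted whole with edgeR 4.0.16 (R 4.3.3): TMM, filterByExpr with a minimum count of 10 (15445, 14819 and 14032 genes tested), 1 coefficient per group, two-sided quasi-likelihood F-test, Benjamini-Hochberg adjustment over all genes tested, threshold 0.05. SE is the size of the log2 fold change over the square root of F. With 2 residual degrees of freedom the H69EZ spread was pooled wholly across genes. The script was tested on simulated data. Ratios with few counts carry exact 95% intervals. Such intervals, and the floor of 3 counts per group, hold counting error alone. Members and lists were chosen with earlier results of these data known. Named genes were a panel of core subunits, isoforms and mitochondrial genes, the 3 largest rises and 3 largest falls per comparison without overlap, and leading genes of related lists; others were named after their values were seen. Alternatives were a test without filtering, a count minimum of 100, size factors or the test of DESeq2 1.42.0, library totals, limma-voom 3.58.1, only the groups compared, the replicate block, a 1.5-fold minimum, the rule taken literally, tables without mitochondrial genes or without Rn45s, the sum of RPPM1 and RPPM2, the mouse table lacking EHK_RPP4 and RPPM3, and each library left out in turn.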

Additional observations from a re-analysis of the deposited data

How the results depend on the processing

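Of 182 recomputed counts of members called, 166 stayed within 1.5 times the reported count. Those that did not were the following. At least 1.5-fold: in H69M against H69, 2 higher and 14 lower; in the PD-L1 sort, 3 higher and 5 lower; in PD-L1 low against H69, 32 lower; in the HLA sort, 5 nuclear higher, 6 nuclear lower and 8 mitochondrial lower; in the mouse, 10 higher. At that size, 3270 of all genes tested were higher and 2517 lower in H69M against H69, and 3727 and 3888 in the PD-L1 sort. In PD-L1 low against H69, 2883 were lower, in the HLA sort 4101 were higher and 3561 lower, and in the mouse 4338 higher. Minimum count of 100, with 78 members tested: 3 higher in H69M against H69 and 1 higher in PD-L1 low against H69. Library totals without TMM: 12 higher in the PD-L1 sort, 41 nuclear lower in the HLA sort, 8 higher and 42 lower in the mouse. With library totals 47.8% of all genes were lower in the HLA sort and 52.0% in the mouse. Without HLA high replicate 1: 34 nuclear lower. With each library left out in turn, counts higher and lower ran from 4 to 6 and 53 to 59 (H69M against H69), 17 to 25 and 33 to 39 (PD-L1 sort), 4 to 4 and 63 to 68 (PD-L1 low against H69), 21 to 39 and 14 to 34 (HLA sort, nuclear), 0 and 12 to 13 (mitochondrial), 18 to 28 and 20 to 25 (mouse). The zero mitochondrial rises held in edgeR, DESeq2 and limma-voom, and 13 of 13 had an unadjusted p under 0.05, all lower. The 107 gene values followed were of panel and mitochondrial genes called in the main test and of the largest rises and falls. Genes called neither could not enter. Of the 107, 88 kept direction and call in every alternative, and 2 turned sign with library totals: Atp5g3 to -0.00168 and Cox6a1 to -0.13. The causes were not tested.

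The labels do not say that a shared number marks a shared source. Deviations of same-numbered libraries correlated at -0.54 to 0.37 in the H69 table. In H69EZ, with 2 libraries per group, deviations from the group mean mirror each other. The same-numbered pairs there must give the same value (0.15), which cannot tell. The number is therefore not treated as a pairing. With the replicate number as a block, 57 members were lower in H69M against H69, 22 higher and 35 lower in the PD-L1 sort, 67 lower in PD-L1 low against H69, and 28 higher, 21 lower and 13 mitochondrial lower in the HLA sort. The mouse columns carry no numbers, so no block was fitted there. Depth limits the isoform genes: COX8C had 1 count in H69, and COX4I2 was seen in 1 group of its table.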
